A study of Mus musculus with 6 samples.

Results

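Genes of the SWI/SNF, CHD and NuRD chromatin remodelling families were followed in cultured mouse ES (embryonic stem) cells, pluripotent cells that can form all tissues of the body. The members are the protein-coding genes whose GENCODE M21 symbol starts with Smarc or Arid, or with Chd, Mta or Mbd followed by a digit. The rule found 44 genes among the 55401 gene identifiers of the count table, and 41 if the symbol must end after the digits, which leaves out Chd1l, Mbd3l1 and Mbd3l2. The study sequenced poly(A) RNA from 6 dishes of cells grown for 7 days. In 3 of them the cells are labelled as expressing 3XHA-Taf13, a tagged form of the TFIID subunit TAF13, and were left untreated. The cells of the other 3 are labelled KO and received doxycycline. The label and the drug always go together, so they cannot be told apart, and the sources used here do not give the parental line, the number of clones or how the drug acts on Taf13.

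Chromatin remodellers use ATP to slide, evict or exchange nucleosomes. SWI/SNF complexes, called BAF and PBAF in mammals, are built around one ATPase, SMARCA4 (BRG1) or SMARCA2 (BRM), with a core of SMARCB1, SMARCC, SMARCD and SMARCE1 proteins and an ARID subunit that sets the subtype. ES cells use a version named esBAF, which holds SMARCA4, SMARCC1, SMARCD1 and ARID1A and largely lacks SMARCA2, SMARCC2 and SMARCD3, subunits that are more common in differentiated cells. NuRD couples a CHD ATPase (CHD3, CHD4 or CHD5) to the histone deacetylases HDAC1 and HDAC2, with MTA, MBD2 or MBD3, GATAD2 and RBBP subunits. The remaining CHD proteins and the ISWI ATPases SMARCA1 and SMARCA5 act outside both complexes.

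The promoters of the 2 alternative BAF ATPase genes are shown because these genes changed in opposite directions in the results that follow. Each sequence is the window around the RefSeq start of the gene, most of it upstream (build GRCm38.p6, the assembly of mm10), 5′ to 3′ on the gene's strand, here the plus strand for both genes. Smarca4 is at chr9:21615919-21616218 and Smarca2 at chr19:26604910-26605209, and capitals mark the GC box GGGCGG or its complement CCGCCC.
Smarca4: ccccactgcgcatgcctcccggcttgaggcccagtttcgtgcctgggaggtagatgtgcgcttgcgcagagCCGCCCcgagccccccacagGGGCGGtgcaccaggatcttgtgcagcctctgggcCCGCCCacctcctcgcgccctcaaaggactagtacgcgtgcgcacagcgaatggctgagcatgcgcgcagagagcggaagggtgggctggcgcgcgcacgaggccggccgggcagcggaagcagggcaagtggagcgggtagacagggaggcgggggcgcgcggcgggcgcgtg
Smarca2: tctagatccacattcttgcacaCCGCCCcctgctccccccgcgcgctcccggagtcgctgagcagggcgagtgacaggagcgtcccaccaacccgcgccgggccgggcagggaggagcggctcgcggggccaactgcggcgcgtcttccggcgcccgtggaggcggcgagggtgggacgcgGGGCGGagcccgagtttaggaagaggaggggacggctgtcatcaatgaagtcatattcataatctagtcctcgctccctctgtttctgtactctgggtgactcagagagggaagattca
The Smarca4 window holds 3 GC boxes and 33 CpG dinucleotides, and the Smarca2 window 2 GC boxes and 29 CpG dinucleotides. Neither holds TATAAA or CCAAT on either strand. RefSeq windows matched 32 of the 44 members, with 40 windows in all, since some genes have more than one start. A GC box was found in 77.5% of these windows, against 59.8% of the windows of all tested genes and 35.7% of every window in the table. The median GC content of the 3 sets of windows was 65.7%, 60.3% and 52.7%, and its part in the GC box shares was not tested. TATAAA was found in 7.5% of the members' windows and in 7.71% of those of tested genes. CCAAT was found in 32.5% and 37.6%. A match is a run of letters only, with no measurement of binding.

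Total counts were 31219328 to 45957003 in the expressing libraries and 33953189 to 50328010 in the libraries labelled KO. Expressing replicate 1 stood apart from the other expressing libraries. How far its genes lay from the mean of the group followed their GC content (r = 0.553, taken across genes, so not over independent replicates). The value without this library is also given for some of the results. Taf13 itself was at 10.0 ± 2.21 CPM (SD, n = 3) in the expressing libraries and 13.2 ± 1.02 CPM (SD, n = 3) in those labelled KO, and reads of the tagged and the chromosomal gene are not separated, so it does not check the labels. All 8 ES cell markers examined, Pou5f1, Sox2, Nanog and Zfp42 among them, were present but fell, with a summed level of 2947.1 to 3132.0 CPM in the expressing libraries and 1932.0 to 1947.9 CPM in those labelled KO. All 10 primitive endoderm markers rose (310.8 to 356.0 CPM summed against 798.9 to 844.7 CPM), with none at 0. The summed ranges overlapped for 8 feeder fibroblast markers (1157.5 to 1355.2 and 951.6 to 1352.9 CPM) and 7 trophectoderm markers (197.1 to 243.9 and 200.1 to 211.1 CPM), and did not for 7 neural markers (316.3 to 373.1 and 283.6 to 302.0 CPM). These sums hide moves in opposite directions. By edgeR (adjusted p under 0.05) 2 of the 8 feeder markers rose and 1 fell. Of 6 tested trophectoderm markers 2 rose and 4 fell, and of 7 neural markers 3 rose and 3 fell. Among all tested genes 19.2% rose and 20.8% fell. Fn1 made up most of the feeder sum (means of 1129.4 and 968.7 CPM). In bulk RNA fewer cells of a type and less RNA per cell cannot be told apart, and the part of these shifts in the changes given next was not tested.

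More remodelling genes fell than rose, and most changes were small. Of the 42 members tested, 15 fell and 4 rose in the libraries labelled KO (edgeR quasi-likelihood test, adjusted p under 0.05 over all tested genes). Across the 17778 genes tested, 20.8% fell and 19.2% rose (40.0% either way). The members' median log2 fold change (KO minus expressing) was -0.15, against -0.01 over all tested genes. The 95% interval lay within a 2-fold change either way for 40 of the 42, the exceptions being Smarca2 and Arid3c. Smarca2, Mbd2, Chd3 and Mbd5 were the genes that rose. Those that fell were Chd5, Mbd3, Smarcd2, Smarcd1, Smarca1, Arid1a, Chd4, Smarcal1, Smarcb1, Chd1, Smarca4, Chd7, Arid2, Chd8 and Chd2. Groups did not overlap for 25 members, 5 with KO above and 20 with KO below, where 26.4% and 27.1% of all tested genes did so (53.5% either way). The members not tested were Mbd3l1, at 0 counts in all libraries, and Mbd3l2, at 1 count in each of KO replicates 2 and 3. A count of 3 corresponds to 0.0581 to 0.0961 CPM, so neither was detected above that level. Without expressing replicate 1, 7 members rose and 20 fell, but more genes were called throughout (26.2% of all tested genes higher and 24.7% lower). With the GC trend of each library removed 6 members rose and 22 fell, beside 23.1% and 30.1% of all tested genes.

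**Figure D1:**
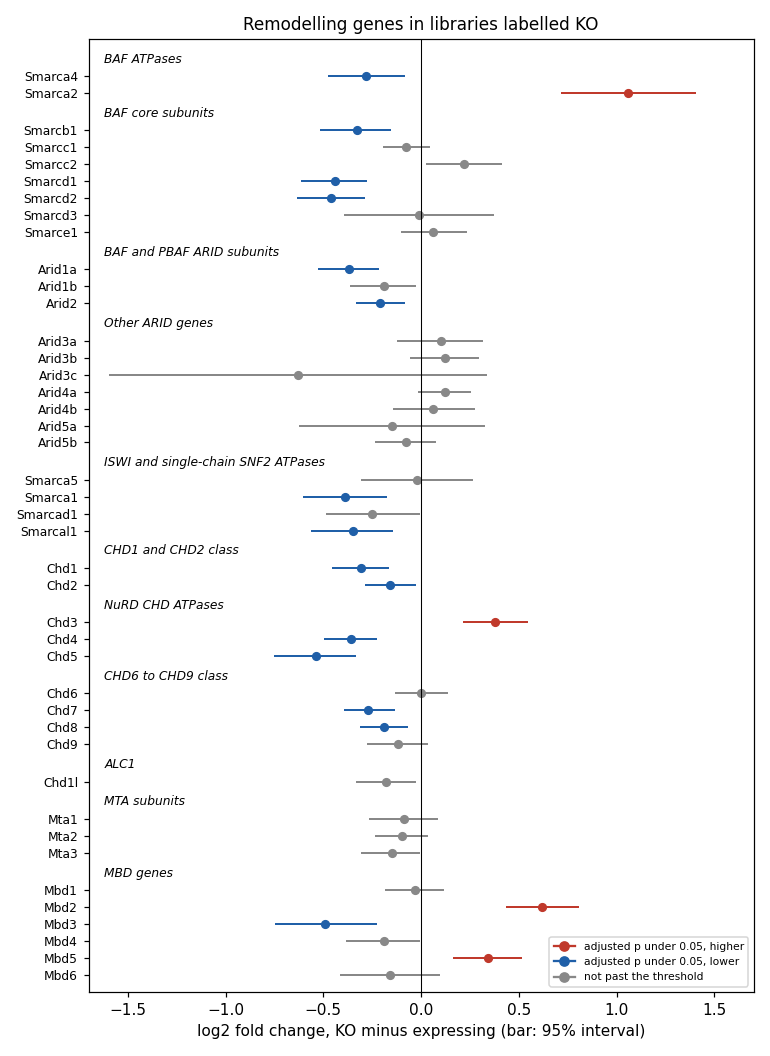
Log2 fold change (KO minus expressing, x axis) of the 42 tested members by subgroup, with points for the estimate and bars for the 95% interval. Smarca2 at 1.06 lies farthest to the right, and 31 of the 42 estimates lie below 0.

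The BAF ATPase genes moved in opposite directions. Smarca2 (ENSMUSG00000024921, mm10 chr19:26605050-26778322), the gene for BRM, stood at 3.46, 5.08 and 4.41 CPM in the expressing libraries and at 8.37, 8.52 and 10.3 CPM in those labelled KO. The groups did not overlap, and the rise was 2.09-fold (log2 fold change 1.06, SE 0.150, 95% interval 0.72 to 1.40, adjusted p = 0.000536, edgeR). Smarca4 (ENSMUSG00000032187, mm10 chr9:21616169-21704230), the gene for BRG1, stood at 362.2, 283.7 and 310.8 CPM and at 256.5, 263.5 and 266.8 CPM. Every library labelled KO was below every expressing library, though the expressing libraries themselves spread over a wider range, and the fall was 17.7% (log2 fold change -0.28, SE 0.0839, adjusted p = 0.0243, edgeR). The fall of Smarca4 shrank to -0.15 when expressing replicate 1 was left out (adjusted p = 0.00111, edgeR). It missed the threshold when expressing replicate 3 (adjusted p = 0.0632, edgeR) or KO replicate 1, 2 or 3 (0.09, 0.0761 and 0.0701) was left out, and with libraries scaled by their totals (0.127). The Smarca2 call held in all 14 alternatives. A gene on the opposite strand, 4931403E22Rik, overlaps Smarca2 exons but had 0 counts in the expressing libraries and 2 in those labelled KO.

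Despite its rise Smarca2 stayed a minor ATPase gene. Per kilobase of annotated exon, Smarca2 was at 0.302 ± 0.0570 CPM and 0.634 ± 0.0741 CPM (SD, n = 3 each), and Smarca4 at 49.3 ± 6.16 and 40.5 ± 0.808 CPM. As a share of both genes' length-scaled counts, Smarca2 made up 0.626 ± 0.187% in the expressing libraries and 1.54 ± 0.153% in those labelled KO (SD, n = 3 each). Exon lengths are the union of all annotated isoforms, so a level per kilobase carries the error of that choice, while a change between groups does not, provided that isoform use is the same.

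Among the 7 BAF core subunit genes, 3 fell and 0 rose, where 20.8% and 19.2% of all tested genes did (edgeR; 1 was higher with an unadjusted p below 0.05, and DESeq2 called 0 higher). Smarcd1, which encodes BAF60A, the form found in esBAF, stood at 274.0, 228.2 and 250.6 CPM in the expressing libraries and 177.9, 185.6 and 190.5 CPM in those labelled KO. Smarcd2, its close paralogue for BAF60B, stood at 62.5, 53.8 and 54.5 CPM and at 42.3, 41.8 and 39.9 CPM. Both pairs of groups were fully separate, with log2 fold changes of -0.44 (SE 0.0729) and -0.46 (SE 0.0758) and adjusted p of 0.00126 and 0.00124 (edgeR). Smarcb1, for the core subunit that contacts the nucleosome's acidic patch, fell by 20.7% (log2 fold change -0.33, SE 0.0774, adjusted p = 0.00766, edgeR). Its level went from 124.3, 102.1 and 109.2 CPM to 86.1, 88.8 and 91.2 CPM, again without overlap. The values of Smarcd1, Smarcd2 and Smarcb1 were -0.35, -0.36 and -0.22 without expressing replicate 1, all still past the threshold.

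The SMARCC scaffold genes did not pass the test as reported. Smarcc1, for BAF155, stood at 469.9, 463.6 and 461.2 CPM and at 440.4, 428.7 and 453.3 CPM (log2 fold change -0.08, 95% interval -0.19 to 0.04). Every library labelled KO was below every expressing one, and Smarcc1 passed with the GC trend removed (-0.12, adjusted p = 0.0121, edgeR). Its exons overlap Dhx30 on the opposite strand. Smarcc2, for BAF170, stood at 47.3, 41.8 and 39.6 CPM and at 46.5, 53.2 and 49.9 CPM, with overlapping groups (log2 fold change 0.22, SE 0.0846, adjusted p = 0.0656, edgeR). Without expressing replicate 1 the Smarcc2 value was 0.32 and passed (adjusted p = 2.34e-05, edgeR), as it did with the GC trend removed (0.25, adjusted p = 0.00155). Smarcd3, for the muscle and neuronal form BAF60C, was low in every library, at 3.2, 2.59 and 2.05 CPM and at 2.55, 2.62 and 2.58 CPM, with overlapping groups (log2 fold change -0.01, 95% interval -0.39 to 0.37). Chpf2, on the opposite strand over Smarcd3 exons, had 1852 and 3235 counts in the groups against 289 and 340 for Smarcd3, so the Smarcd3 value is uncertain. Smarce1, for the HMG-box subunit BAF57, gave 0.06 (95% interval -0.10 to 0.23).

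**Figure D2:**
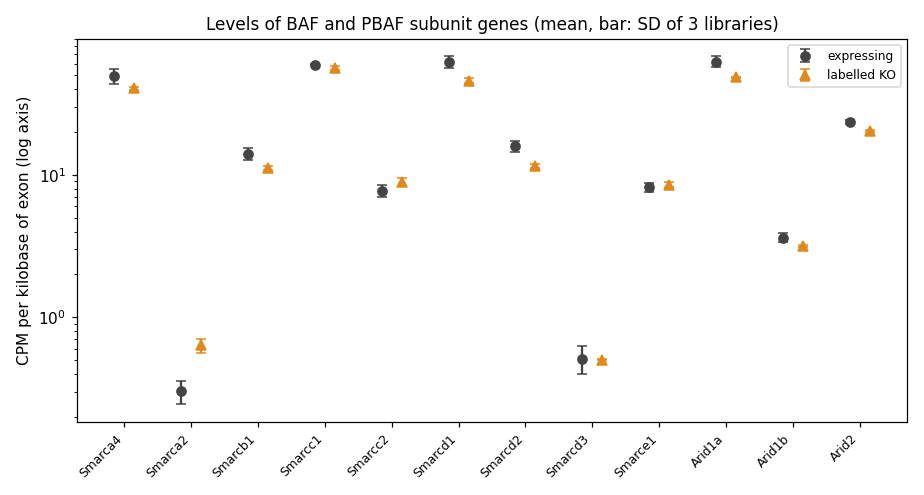
Level of 12 BAF and PBAF subunit genes in CPM per kilobase of exon (y axis, log scale), with the mean of 3 libraries as a point and the SD as a bar. Smarca2 and Smarcd3 lie below 1 CPM per kilobase in both groups, and Smarca4, Smarcc1, Smarcd1 and Arid1a lie above 40.

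Of the ARID subunit genes of BAF and PBAF, Arid1a and Arid2 fell and Arid1b did not pass. Arid1a, for the large DNA-binding subunit of canonical BAF, stood at 784.2, 662.0 and 698.6 CPM and at 551.7, 554.9 and 555.5 CPM. The libraries labelled KO were nearly identical and all lay below the expressing ones (log2 fold change -0.37, SE 0.0668, adjusted p = 0.00214, edgeR). Leaving out expressing replicate 1 gave -0.27 for Arid1a, which also passed (adjusted p = 5.49e-08, edgeR). Arid1b, the mutually exclusive alternative to Arid1a, had 48.8, 42.0 and 46.5 CPM and 40.6, 39.1 and 40.3 CPM (log2 fold change -0.19, 95% interval -0.36 to -0.03, adjusted p = 0.0609, edgeR). It passed without expressing replicate 2 (-0.25, adjusted p = 0.022, edgeR) and with the GC trend removed (-0.17, adjusted p = 0.0129). Arid2, the ARID gene of PBAF, stood at 243.8, 257.2 and 256.1 CPM and at 222.2, 212.9 and 217.7 CPM. Its groups were separate and it fell by 13.8% (-0.21, SE 0.0533, adjusted p = 0.0109, edgeR), a call lost without KO replicate 2 (0.064) or 3 (0.0539) and with library totals (0.0744).

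Paralogue ratios within each library do not depend on how libraries are scaled. Smarca4 counts exceeded Smarca2 counts 104.7, 55.9 and 70.5 times among expressing libraries, but 30.6, 30.9 and 26.0 times among those labelled KO. The shift was -1.36 on the log2 scale, or -1.11 without expressing replicate 1. Smaller shifts in the same direction, with separate groups, were found for Smarcd1 to Smarcd3 (-0.44), Smarcc1 to Smarcc2 (-0.30) and Arid1a to Arid1b (-0.17). All 4 esBAF to somatic ratios that could be taken were lower in the libraries labelled KO. For Smarcd1 to Smarcd3 the shift was -0.28 without expressing replicate 3, and the Smarcd3 counts are uncertain because of Chpf2. Arid1a and Arid1b both had negative log2 fold changes (-0.37 and -0.19), so their ratio holds no rise of the alternative gene. Of the 4 somatic or alternative genes, Smarca2 alone passed the test, while Smarcc2, Smarcd3 and Arid1b did not. Each of these ratios had an exact two-sided permutation p of 0.1, the smallest that 3 against 3 libraries allow, and 0.113 after adjustment over the 9 pairs tested. No ratio could be taken for Actl6a and Actl6b, since Actl6b, the neuronal form, had 2 counts in KO replicate 1 and 0 elsewhere. Primitive endoderm markers were higher in the same libraries, and their part in these ratios was not tested.

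**Figure D3:**
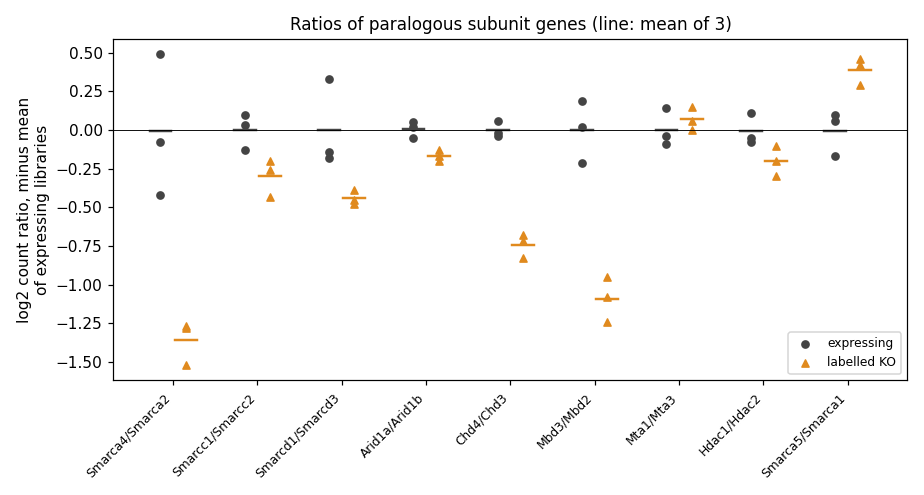
Log2 count ratio of 9 paralogue pairs in each library, after subtraction of the mean of the expressing libraries (y axis), with points for libraries and lines for means of 3. The ratio fell in the libraries labelled KO for 7 pairs without overlap of the groups, Smarca4 to Smarca2 by 1.36 and Mbd3 to Mbd2 by 1.09 on the log2 scale.

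NuRD ATPase genes also moved in opposite directions. Chd4, the highest member per kilobase (125.3 ± 6.53 and 97.6 ± 2.68 CPM, SD, n = 3 each), stood at 1063.3, 962.5 and 988.3 CPM and at 770.7, 769.3 and 807.2 CPM. Its groups were separate and it fell by 22.1% (log2 fold change -0.36, SE 0.0565, adjusted p = 0.000951, edgeR). Chd3, the alternative ATPase gene, stood at 55.1, 49.3 and 47.9 CPM and at 64.0, 69.0 and 65.0 CPM, all higher in the libraries labelled KO (log2 fold change 0.38, SE 0.0722, adjusted p = 0.00276, edgeR). Chd5, known mostly from neurons and testis, was low and had the lowest log2 fold change of the members that fell, from 18.6, 15.6 and 17.5 CPM to 11.9, 11.8 and 11.7 CPM (-0.54, SE 0.0895, adjusted p = 0.00124, edgeR). The Chd4 to Chd3 ratio went from 19.3, 19.5 and 20.6 to 12.0, 11.2 and 12.4 (log2 shift -0.74, exact permutation p = 0.1). Chd3 accounted for 4.58 ± 0.153% of the length-scaled counts of Chd4 and Chd3 in the expressing libraries and 7.42 ± 0.382% in those labelled KO (SD, n = 3 each).

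The methyl-CpG-binding subunits of NuRD, which are mutually exclusive in the complex, also diverged. Mbd3, whose product assembles NuRD without binding methylated DNA strongly, stood at 132.4, 94.1 and 107.7 CPM and at 85.0, 76.6 and 76.9 CPM. Mbd2, whose product binds methylated CpG, stood at 19.3, 18.0 and 17.7 CPM and at 27.3, 26.9 and 30.2 CPM. Neither gene's groups overlapped. Mbd3 fell by 28.6% (log2 fold change -0.49, SE 0.113, adjusted p = 0.00778, edgeR) and Mbd2 rose 1.54-fold (0.62, SE 0.0800, adjusted p = 0.000321, edgeR). Without expressing replicate 1, the library where Mbd3 was highest, the Mbd3 value was -0.32 (adjusted p = 5.46e-05, edgeR). Their count ratio went from 6.85, 5.22 and 6.1 to 3.12, 2.85 and 2.54 (log2 shift -1.09, exact permutation p = 0.1). Mbd2 made up 9.36 ± 1.17% in expressing libraries and 18.0 ± 1.5% in those labelled KO of the length-scaled counts of Mbd3 and Mbd2 (SD, n = 3 each).

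The MTA genes, whose products scaffold the deacetylases, did not pass the test in either direction. Of the 3, edgeR called 0, beside 40.0% of all tested genes, and DESeq2 called 0. By edgeR 1 was lower with an unadjusted p below 0.05. Mta2 was the highest of them per kilobase, at 51.6 ± 2.64 and 48.1 ± 1.01 CPM (SD, n = 3 each), followed by Mta1 (34.8 ± 3.47 and 32.7 ± 0.454) and Mta3 (18.0 ± 0.759 and 16.2 ± 0.868). Their log2 fold changes were -0.10 (95% interval -0.23 to 0.03), -0.09 (-0.26 to 0.08) and -0.15 (-0.30 to -0.01). The Mta1 to Mta3 ratio overlapped between groups (log2 shift 0.07, exact permutation p = 0.4). Mta3 passed without expressing replicate 1 (-0.12, adjusted p = 0.0362, edgeR).

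Of the 4 tested MBD genes outside NuRD, 1 rose, where 19.2% of all tested genes did, and 3 did not pass. Mbd5, whose product belongs to a deubiquitinase complex with the Polycomb-like ASXL proteins, stood at 17.9, 18.6 and 18.3 CPM and at 21.7, 24.1 and 23.5 CPM. It rose by 26.3% with separate groups (log2 fold change 0.34, SE 0.0751, adjusted p = 0.00627, edgeR). Exons of Mbd5 overlap Orc4 on the opposite strand, and Orc4 had 11087 and 15004 counts against 2048 and 3054 for Mbd5, so this value is uncertain. Mbd6, its paralogue, gave -0.16 (95% interval -0.41 to 0.09), Mbd1 -0.03 (-0.18 to 0.11), and Mbd4, for a glycosylase that removes mismatched thymine at CpG sites, -0.19 (-0.38 to -0.01), none past the threshold. Mbd4 passed without expressing replicate 1 (-0.22, adjusted p = 0.00273, edgeR) and with the GC trend removed (-0.28, 0.000724).

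**Figure D4:**
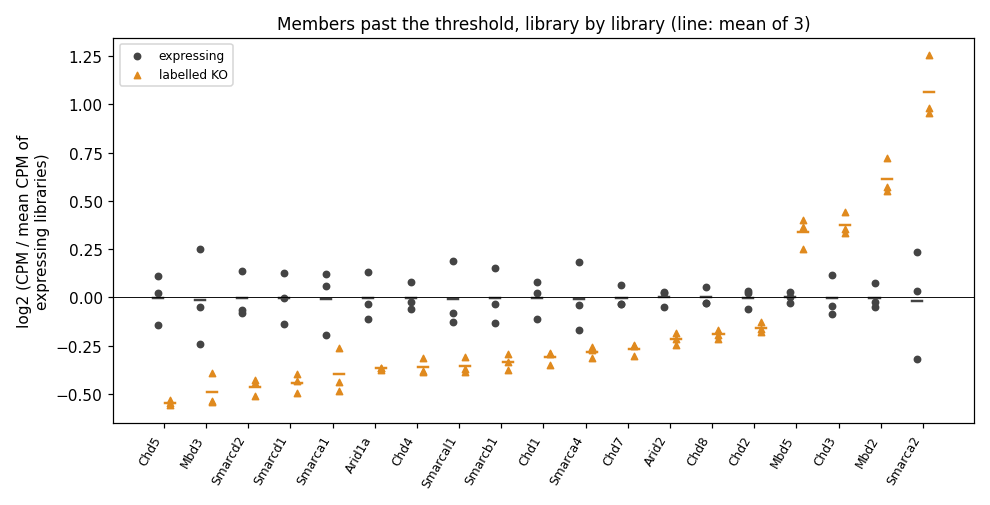
Level of the 19 members past the threshold in each library, as log2 of CPM over the mean CPM of the expressing libraries (y axis), with points for libraries and lines for means of 3. No group overlaps the other for any of the 19, and expressing libraries spread more than those labelled KO for most genes that fell.

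Of the 7 CHD genes outside NuRD, 4 fell and 0 rose, beside 20.8% lower and 19.2% higher over all tested genes, and 2 of the 4 falls (Chd2 and Chd8) were lost under several alternatives (edgeR; 0 were higher with an unadjusted p below 0.05, and DESeq2 called 0 higher). Chd1, whose product binds trimethylated lysine 4 of histone H3 and spaces nucleosomes in transcribed genes, stood at 412.7, 452.3 and 471.0 CPM and at 363.4, 349.2 and 365.3 CPM. The groups were separate (log2 fold change -0.31, SE 0.0618, adjusted p = 0.00356, edgeR). Chd2, its paralogue, went from 126.0, 133.6 and 134.7 CPM to 116.0, 120.3 and 117.2 CPM, also without overlap (log2 fold change -0.16, SE 0.0560, adjusted p = 0.0485, edgeR), but passed in only 4 of the 14 alternatives. Without expressing replicate 2 or 3 the adjusted p for Chd2 was 0.107 and 0.178, and without KO replicate 1, 2 or 3 it was 0.162, 0.111 and 0.156. Exons of Chd2 overlap 1810026B05Rik on the same strand, which had 2243 and 2868 counts against 14748 and 15517 for Chd2.

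Chd7, the gene mutated in CHARGE syndrome, fell from 194.5, 181.3 and 181.5 CPM to 150.7, 156.4 and 156.1 CPM (log2 fold change -0.27, SE 0.0561, adjusted p = 0.00469, edgeR). Chd8, whose product binds beta-catenin and whose human gene is linked to autism, fell from 346.9, 328.1 and 327.9 CPM to 287.8, 292.5 and 297.5 CPM (-0.19, SE 0.0525, adjusted p = 0.0166, edgeR). For both genes every library labelled KO lay below every expressing one. Chd8 missed the threshold when expressing replicate 3 was left out (adjusted p = 0.0518, edgeR), without KO replicate 1, 2 or 3 (0.0822, 0.0716 and 0.0584) and with library totals (0.189). With the replicate number as a block the calls of Chd8 (adjusted p = 0.0517, edgeR) and Chd2 (0.0978) were lost. Chd6 gave 0.00 (95% interval -0.13 to 0.13) and Chd9 -0.12 (-0.27 to 0.03), though Chd9 passed without expressing replicate 1 (-0.16, adjusted p = 0.000277, edgeR) and with the GC trend removed (-0.21, 0.000183). Chd1l, for the poly(ADP-ribose)-activated remodeller ALC1, gave -0.18 (-0.33 to -0.03, adjusted p = 0.0531, edgeR) and passed with the GC trend removed (-0.17, 0.0119).

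The ISWI ATPase genes differed from each other. Smarca1, for SNF2L, stood at 76.3, 91.0 and 94.9 CPM and at 72.8, 62.4 and 64.5 CPM, and fell by 23.9% with separate groups (log2 fold change -0.39, SE 0.0933, adjusted p = 0.00851, edgeR). Smarca5, for SNF2H, the main ISWI ATPase of ES cells, stood at 183.3, 262.9 and 266.8 CPM and at 240.0, 225.3 and 239.2 CPM. Expressing replicate 1 alone lay below the libraries labelled KO, and the other expressing libraries lay above them. The Smarca5 log2 fold change was -0.02 (SE 0.124), and without expressing replicate 1 it was -0.15 (SE 0.0364, adjusted p = 0.00113, edgeR). Smarca5 transcripts have a GC content of 40.7%, and with the GC trend removed the value was -0.09 (adjusted p = 0.137). The Smarca5 to Smarca1 ratio rose from 2.40, 2.89 and 2.81 to 3.30, 3.61 and 3.71 (log2 shift 0.39, exact permutation p = 0.1).

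Of the SNF2-family ATPases that act as single chains, 1 of 2 passed, where 40.0% of all tested genes did in either direction. Smarcal1, for an annealing helicase at stalled replication forks, stood at 41.3, 33.2 and 34.2 CPM and at 29.2, 28.0 and 27.7 CPM. Its groups were separate and it fell by 21.8% (log2 fold change -0.35, SE 0.0919, adjusted p = 0.0131, edgeR; -0.22 without expressing replicate 1), a call lost without KO replicate 2 (0.0539) or 3 (0.06) and with library totals (0.0681). Smarcad1, whose product helps to keep silent chromatin and endogenous retroviruses repressed in ES cells, stood at 309.1, 411.0 and 418.1 CPM and at 322.6, 307.3 and 328.7 CPM, with expressing replicate 1 inside the range of the libraries labelled KO. It did not pass (-0.25, SE 0.104, adjusted p = 0.0857, edgeR). It did without expressing replicate 1 (-0.35, SE 0.0354, adjusted p = 6.43e-10, edgeR) and with the GC trend removed (-0.32, adjusted p = 7.58e-06), its transcript GC content being 41.1%.

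The other ARID genes, whose products share the DNA-binding fold but are not BAF subunits, did not pass. Of the 7, edgeR called 0, beside 40.0% of all tested genes, and DESeq2 called 0. By edgeR 0 had an unadjusted p below 0.05. Arid3a, Arid3b and Arid4a, the last for a SIN3 deacetylase subunit, gave 0.10 (95% interval -0.12 to 0.31), 0.12 (-0.05 to 0.29) and 0.12 (-0.01 to 0.25). Without expressing replicate 1 Arid3b gave 0.23 (adjusted p = 9.86e-05, edgeR) and Arid4a 0.12 (adjusted p = 0.0359). With the GC trend removed Arid3b passed at 0.16 (adjusted p = 0.00583, edgeR) and Arid4a was at 0.02. Arid4b, also of the SIN3 complex, gave 0.06 (-0.14 to 0.27). Its exons overlap Ggps1 on the opposite strand, which had 5484 and 6705 counts in the groups against 13325 and 16163 for Arid4b. Arid5b, a partner of the demethylase PHF2, gave -0.08 (-0.23 to 0.07), or -0.15 with the GC trend removed, which passed (adjusted p = 0.0166, edgeR), and the weakly expressed Arid5a -0.15 (-0.62 to 0.32). Arid3c was under 1 CPM in every library, with 13 to 31 counts, and its interval (-1.59 to 0.33) leaves its change unknown.

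Subunits and related ATPases outside the symbol rule were read from a list of 44 partner genes, of which 43 were tested. Of these 16 fell (37.2%) and 3 rose (6.98%), beside 20.8% and 19.2% of all tested genes, and DESeq2 called 13 lower and 3 higher. Among 18 tested BAF and PBAF partners, 6 fell (33.3%) and 2 rose (11.1%), beside the same 20.8% and 19.2%. Actl6a, for BAF53A, the actin-related subunit of esBAF, stood at 235.2, 222.7 and 223.6 CPM and at 147.6, 141.4 and 145.3 CPM. The groups were far apart (log2 fold change -0.65, SE 0.0543, adjusted p = 2.75e-05, edgeR), although Actl6a also serves the INO80 and NuA4 complexes. Its exons overlap Mrpl47 on the opposite strand, which had 8145 and 8191 counts against 25332 and 19021. Dpf1, for a neuronal PHD-finger subunit (BAF45B), went from 12.1 ± 1.65 to 5.39 ± 0.194 CPM (SD, n = 3 each; -1.16, SE 0.119). Bcl11a, for a zinc-finger protein associated with BAF, went from 13.5 ± 2.03 to 6.58 ± 0.499 CPM (SD, n = 3 each; -1.04, SE 0.126). Actb, for beta-actin, rose by 0.35 (SE 0.0647) and Ss18, for the subunit fused in synovial sarcoma, by 0.22 (SE 0.0601). With the GC trend removed Ss18 was at 0.12 and Actb still at 0.35. Ss18 did not pass without KO replicate 1 (adjusted p = 0.0699, edgeR) or 3 (0.0823). The PBAF genes Pbrm1 and Brd7, the non-canonical BAF gene Brd9 and the general BAF gene Dpf2 did not pass. Phf10, Bicra and Bicral, on the same list of BAF and PBAF partners, fell (log2 fold changes -0.18, -0.48 and -0.47). Their adjusted p-values were 0.0426, 0.0188 and 0.000422 (edgeR), that of Phf10 close to the threshold. Phf10 exons overlap 1600012H06Rik on the opposite strand, which had 3599 and 5862 counts against 15018 and 15480 for Phf10. Both the genes that did not pass and those that fell here were named after their values were seen. Pbrm1 exons overlap Gnl3 on the opposite strand, so the Pbrm1 value is uncertain. Gnl3 had 72148 and 71576 counts in the groups against 35435 and 45291 for Pbrm1.

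Of 7 NuRD partners 5 fell and 0 rose, against 20.8% and 19.2% of all tested genes (edgeR). By edgeR 0 were higher with an unadjusted p below 0.05, and DESeq2 called 0 higher and 3 lower. Gatad2b and Cdk2ap1, named after their values were seen, passed in only 5 and 10 of the 14 alternatives. The Gatad2b groups overlapped. Hdac1, a catalytic deacetylase gene, fell from 46.8 ± 1.12 to 36.3 ± 1.80 CPM (SD, n = 3 each; log2 fold change -0.37, SE 0.0670, adjusted p = 0.00223, edgeR). Hdac2 had -0.17 (SE 0.0621, adjusted p = 0.0494, edgeR) and passed in only 3 of the 14 alternatives. Its adjusted p was 0.108 and 0.179 without expressing replicate 2 or 3, and 0.102, 0.19 and 0.124 without KO replicate 1, 2 or 3. The Hdac1 to Hdac2 ratio was lower in every library labelled KO (log2 shift -0.19, exact permutation p = 0.1). The margin was small, with 0.15 in expressing replicate 2 and 0.148 in KO replicate 2. With the GC trend removed the shift was -0.12 (exact permutation p = 0.2). The histone chaperone gene Rbbp4, named after its value was seen, fell by 0.41 on the log2 scale (SE 0.0497), from 762.2 ± 9.37 to 575.4 ± 15.3 CPM (SD, n = 3 each).

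Among 10 ISWI and ChAHP partners 3 fell (30.0%) and 1 rose (10.0%), beside 20.8% and 19.2% of all tested genes. Baz1a, for the ACF1 subunit of ISWI complexes, went from 108.9 ± 3.19 to 130.1 ± 4.4 CPM (SD, n = 3 each), a rise of 0.26 on the log2 scale (SE 0.0571). With the GC trend removed it was 0.16, and Baz1a shares exon sequence with a same-strand gene model, Gm20403, that had 0 counts. Baz2a, for the TIP5 subunit that silences ribosomal DNA, named after its value was seen, had -0.49 (SE 0.0604). Of 8 other SNF2-family ATPases 2 fell (25.0%, near the 20.8% of all tested genes) and 0 rose (edgeR; 0 were higher with an unadjusted p below 0.05, and DESeq2 called 0 higher). Hltf, for a translocase of replication fork repair, had -0.58 (SE 0.106, adjusted p = 0.00221, edgeR). Ino80, for the ATPase of the INO80 complex and named after its value was seen, had -0.54 (SE 0.0568). Adnp, for the ChAHP transcription factor, and Srcap each share exons with a same-strand gene model, and their low counts are uncertain.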

How the data were processed

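Poly(A) RNA was sequenced from 6 dishes of mouse ES cells, 3 per group. Groups were taken from the sample titles. The submitters' processing notes name STAR 2.5.3a, HTSeq 0.6.1p1, cutadapt 1.10 and bcl2fastq 2.20.0.422, with build mm10. The authors deposited raw read counts for each gene, as whole numbers. The counting step's strand setting is not given in the sources used here, nor is its gene annotation, so overlapping genes may share reads, although the kit marks strand per the labels' protocols. The labels name separate dishes, which may share a starting culture.

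GENCODE M21 (mm10) named 55141 of the 55401 identifiers, and unnamed ones held at most 0.00465% of a library. In R 4.3.3, edgeR 4.0.16 filtered genes (filterByExpr, at least 10 counts and a total of 15), scaled libraries by TMM and tested with glmQLFit (robust) and glmQLFTest, the group being the only term. P-values were adjusted by Benjamini-Hochberg over 17778 genes with a threshold of 0.05. SE and 95% intervals come from the test statistic. CPM uses TMM-scaled library sizes. The fit was checked on simulated counts. No library was a copy of another: replicate pairs gave a chi-square per degree of freedom of 3.27 to 33.9. Paralogue ratios were tested by exact permutation.

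Alternatives were DESeq2 1.42.0, its size factors in edgeR, library totals, other filters, a replicate block, removal of each library's GC trend (a spline with 8 degrees of freedom on transcript GC content) and each library left out. Every member is accounted for by name, those past the threshold and the esBAF and somatic subunits with values per library. Of partner genes, the 4 largest rises and falls past the threshold and Actl6a, Actl6b, Hdac1 and Hdac2 were to be named, and only 3 rose. The members, lists and tests were chosen with earlier results of these data known. Floors cover counting error only, as PCR duplicates were not identified.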

Additional observations from a re-analysis of the deposited data

How the results depend on the processing

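Of the 19 members past the threshold, 14 stayed past it under all 14 alternatives, and Smarca4, Arid2, Smarcal1, Chd2 and Chd8 did not; of the 23 others, 12 passed under at least one. The 4 rises became 7 without expressing replicate 1, the range over left-out libraries being 4 to 7. Of all tested genes 26.2% rose without expressing replicate 1, and 14.1% to 26.2% over left-out libraries. The 15 falls became 23 with the GC trend removed and the replicate block together, 22 with the GC trend removed and 10 with library totals. Over left-out libraries the range was 10 to 20. Beside these falls, the shares of all tested genes that fell were 29.7%, 30.1% and 14.5%, and 14.5% to 24.7% over left-out libraries. Library totals moved the median of all tested genes from -0.01 to 0.08 (log2) and that of the members from -0.15 to -0.06. Members called under that scaling numbered 6 higher and 10 lower, beside 25.1% and 14.5% of all tested genes. The partner genes that rose went from 3 to 6 with library totals. They ranged from 2 to 6 over left-out libraries, with 6 without expressing replicate 1. The shares of all tested genes given for the members come from the same fits and stand beside the partner counts too. The partner genes that fell went from 16 to 24 with the GC trend removed, to 23 with that and the replicate block and to 11 with library totals, without KO replicate 2 or without KO replicate 3. Counting only symbols that end after the digits, an alternative chosen after seeing the data, left 4 rises and 15 falls. No member past the threshold changed sign.

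Replicate numbers did not pair the libraries. The deviations of same-numbered libraries correlated at 0.0236, -0.0342 and 0.0419, and expressing replicate 1 correlated best with KO replicate 2 (0.0498). With the replicate number as a block, 4 members rose and 13 fell, and 3 partner genes rose and 15 fell. Of all tested genes 18.2% rose and 19.1% fell under the block. The ratio shifts under the block equal the reported ones, with an exact sign-flip p of 0.25, the smallest that 3 pairs allow.

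Estimates that did not pass in the reported fit changed sign as follows. With library totals Smarcc1 was 0.01, Smarcd3 0.08, Arid5b 0.01, Smarca5 0.08, Mta1 0.00 and Mbd1 0.05. With the GC trend removed Smarcd3 was 0.05, Smarce1 -0.03, Arid4b -0.02 and Chd6 -0.05, and with the replicate block as well Smarcd3 was 0.06, Smarce1 -0.03, Arid4b -0.02 and Chd6 -0.05. With the replicate block alone Smarcd3 was 0.01, Smarca5 0.00 and Chd6 -0.00. By DESeq2, and with its size factors in edgeR, Smarcd3 was 0.00. Without expressing replicate 1 Smarcd3 was 0.17, Arid4b -0.01, Arid5a 0.07, Mta1 0.01 and Mbd1 0.03. Smarca5 was 0.06 and 0.08 without expressing replicate 2 or 3 and 0.01 without KO replicate 2, and Chd6 was -0.01 and -0.02 without KO replicate 2 or 3. Over left-out libraries Arid4b reached 0.13, Arid5a -0.35 and Mta1 -0.16. The cause of these moves was not tested. Without a spike-in, a shift common to every transcript cannot be measured. Members under about 1 CPM (Arid3c, Mbd3l1, Mbd3l2) are limited by depth.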
